A study of Mus musculus with 12 samples.

Results

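Livers of LPS-treated S534A mice were compared with livers of untreated wild-type mice, gene by gene. Every gene with a probe set of its own (1 gene symbol) was a member of the comparison, 19938 genes in all, measured on 8 of the 12 arrays of the series. The S534A mice carried a homozygous knock-in allele of the p65 subunit of NF-kB (gene Rela) in which the serine named in S534A is replaced by alanine through an altered exon 10. The targeted embryonic stem cells were of the PTL1 line, the selection cassette was removed by crossing to a Flipase line, and 5 backcrosses to C57Bl6/J came before the mice were bred to homozygosity. All groups were male mice with the background strain labelled C57Bl/6 and the source labelled C57Bl6/J, and total liver RNA was measured. The S534A LPS group (4 arrays) received 1 µg/kg LPS and the untreated wild-type group (4 arrays) received none. The remaining 4 arrays were wild-type livers with the same LPS dose and entered the fit so that each gene's difference between the LPS-treated genotypes could be given beside its main value. The sources used here give neither the age of the mice nor the time after LPS, and do not name the ES cell clone behind the analysed animals. Untreated S534A liver was not analysed here, so genotype and treatment differ together in the main comparison and cannot be told apart within it.

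Lipopolysaccharide (LPS), from the outer membrane of Gram-negative bacteria, is bound by Lbp and Cd14 and recognised by Tlr4 with Ly96. Myd88-dependent signalling from this receptor releases NF-kB from its IkB inhibitors, and Ticam1-dependent signalling activates interferon regulatory factors and type I interferon genes. In liver, Kupffer cells and endothelial cells sense LPS directly, while hepatocytes answer the cytokines that follow with acute phase proteins and with lower expression of many metabolic genes. p65 is a DNA-binding and transactivating subunit of NF-kB, and the substituted serine is a known phosphorylation site in its transactivation domain.

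Values are log2 RMA levels per probe set, each array's 4 values are given in the order of replicates 1 to 4, and differences are S534A LPS minus untreated wild-type on the log2 scale ± the standard error (SE) of the limma fit. A gene was called where the Benjamini-Hochberg adjusted p over all 19938 genes was below 0.05. A gene is said to have risen or fallen only where it was called. The labels do not say that replicates were separate mice, so p-values reflect only how much these samples varied, which may be technical, and 4 arrays per group limit the precision. Levels of different probe sets are not compared with each other.

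The arrays were alike in median level (6.15 to 6.32), and within the S534A LPS group the correlations between arrays were 0.994 to 0.996. The 15 measured hepatocyte markers had a mean level of 13.01 to 13.12 in the untreated arrays and 12.97 to 13.01 in the S534A LPS arrays, so the tissue had the labelled identity. Untreated arrays did not form a uniform baseline. The clock-controlled transcription factor Dbp read 8.14, 11.19, 7.59 and 11.39 across the untreated replicates, which put replicates 2 and 4 apart from replicates 1 and 3. In addition, S534A LPS replicate 3 held transcripts of exocrine pancreas (mean of 16 markers 6.02, 5.99, 9.22 and 6.10 in the S534A LPS replicates, against 5.71 to 6.08 in untreated liver), as did WT LPS replicates 2 and 3. Where the call of a gene named by the fixed rule (given with the processing) changed without these arrays, the change is given beside it. Genes named outside that rule were not followed in this way against untreated liver, so a missing note there says nothing about their stability. For a list's count only the larger relative changes are given. A list without such a note may therefore also have changed, by a smaller share of its count.

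Of the 19938 genes, 2188 were higher (11.0%) and 3181 were lower (16.0%) in S534A LPS liver, 26.9% in all. The counts of list members given below are to be read beside these shares. Most calls were modest in size: the median called gene was 1.47-fold higher or 1.39-fold lower, and the median difference over all genes was 0.03. The large changes went up. At least 2-fold higher were 549 genes (2.75%) and at least 2-fold lower 270 (1.35%), while 189 genes were at least 4-fold higher against 14 at least 4-fold lower. The 4 S534A LPS values lay entirely above the 4 untreated values for 2753 genes (13.8%) and entirely below them for 3487 (17.5%).

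**Figure D1:**
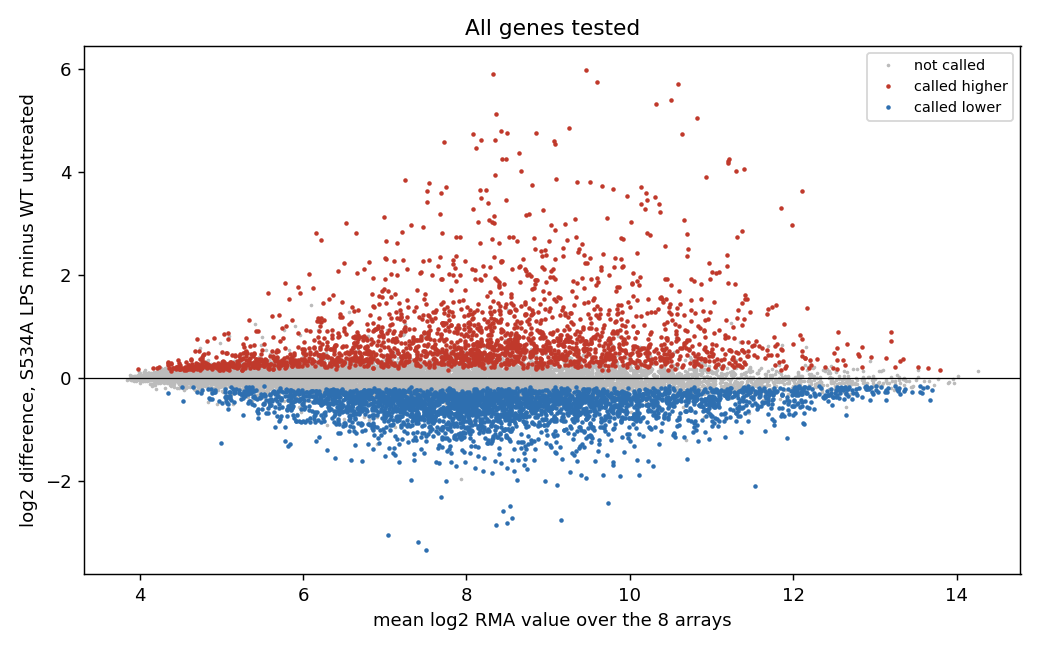
Each point is 1 gene, with its mean log2 RMA level over the 8 arrays on the x axis and its log2 difference (S534A LPS minus untreated wild-type) on the y axis. The 2188 genes called higher reach a difference of 5.98, while the 3181 called lower reach -3.34.

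Rela itself, the gene that carries the substitution, was at 9.82, 10.08, 9.88 and 10.08 in the untreated arrays and at 11.24, 11.21, 11.23 and 11.12 in the S534A LPS arrays. Every S534A LPS array was above every untreated array, and Rela rose by 1.24 ± 0.07 (2.36-fold, adjusted p = 5.04e-08). In LPS-treated wild-type liver the level was 11.11 ± 0.08 (SD, n = 4), and the difference between the LPS-treated genotypes was 0.09 ± 0.07 (95% interval -0.07 to 0.25). The probe set (ID 10460631) reads the amount of Rela RNA and does not check the altered codon.

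The largest rises were those of antiviral interferon-stimulated genes. The 12 largest rises and 12 largest falls were taken from called genes whose groups of arrays did not overlap, so their separation is part of the choice. Ifit2, Ifit3b and Ifit1 encode proteins that bind foreign RNA and restrain translation. Ifit2 (probe set 10462613) read 6.32, 6.49, 6.29 and 6.79 in untreated liver and 12.32, 12.49, 12.54 and 12.47 in S534A LPS liver, a rise of 5.98 ± 0.14 (63.2-fold, adjusted p = 6.97e-12). Ifit3b (probe set 10462621) went from 5.61, 5.36, 4.97 and 5.59 to 11.27, 11.25, 11.44 and 11.15, a difference of 5.90 ± 0.13 (59.6-fold). For Ifit1 (probe set 10462623) the untreated arrays gave 8.23, 7.77, 7.57 and 7.64 and the S534A LPS arrays 13.16, 13.23, 13.26 and 13.18, a difference of 5.41 ± 0.11 (42.5-fold). In each of these genes the treated arrays clustered within a narrow band far above the untreated ones. Rsad2 (viperin, which makes a chain-terminating nucleotide) and Cmpk2, a mitochondrial nucleotide kinase, followed. Rsad2 (probe set 10399710) read 8.24, 7.20, 7.72 and 7.77 untreated and 13.43, 13.44, 13.48 and 13.40 after LPS in S534A liver, a difference of 5.71 ± 0.16 (52.2-fold, adjusted p = 3.46e-11). Cmpk2 (probe set 10395039) read 8.04, 7.43, 7.74 and 7.43 and then 12.97, 12.95, 12.98 and 12.99, a difference of 5.31 ± 0.13 (39.8-fold).

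Mx1 and Mx2, dynamin-like GTPases that block virus replication, came next among the antiviral genes. Mx1 was at 6.21, 5.60, 5.55 and 5.86 in untreated and at 10.97, 10.98, 11.08 and 10.70 in S534A LPS liver (5.13 ± 0.22, 35-fold). Mx2 was at 5.53, 5.60, 5.61 and 6.08 and 10.44, 10.40, 10.57 and 10.37 (4.74 ± 0.16, 26.7-fold). The groups were several log2 units apart in both genes. Gbp9, a guanylate-binding protein of the interferon-gamma response, went from 6.44, 6.39, 6.38 and 6.67 to 11.28, 11.22, 11.21 and 11.20 (4.76 ± 0.10, 27-fold).

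The chemokines Cxcl10 and Ccl3 and the acute phase gene Saa1 were also among the 12 largest rises. Cxcl10 draws Cxcr3-bearing lymphocytes, and it read 8.63, 8.32, 7.90 and 8.34 in untreated and 13.29, 13.43, 13.33 and 13.37 in S534A LPS liver (5.06 ± 0.15, 33.3-fold, adjusted p = 4.68e-11). Ccl3 attracts monocytes and other leukocytes, with 6.03, 6.13, 6.00 and 6.32 untreated and 10.86, 11.01, 10.62 and 11.03 after LPS (4.76 ± 0.11, 27-fold). Ccrl2, a receptor that binds chemerin without signalling itself, went from 5.84, 5.97, 6.10 and 6.16 to 10.77, 10.95, 10.79 and 10.75 (4.80 ± 0.15, 27.8-fold). Saa1, serum amyloid A, stood out for its untreated spread: 8.16, 6.34, 5.36 and 7.45 untreated against 11.65, 11.72, 11.74 and 11.64 in S534A LPS liver (4.86 ± 0.43, 29.1-fold, adjusted p = 2.62e-06). Its S534A LPS values lay close together, while its untreated SD (1.23, n = 4) was larger than that of the other 11 genes.

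**Figure D2:**
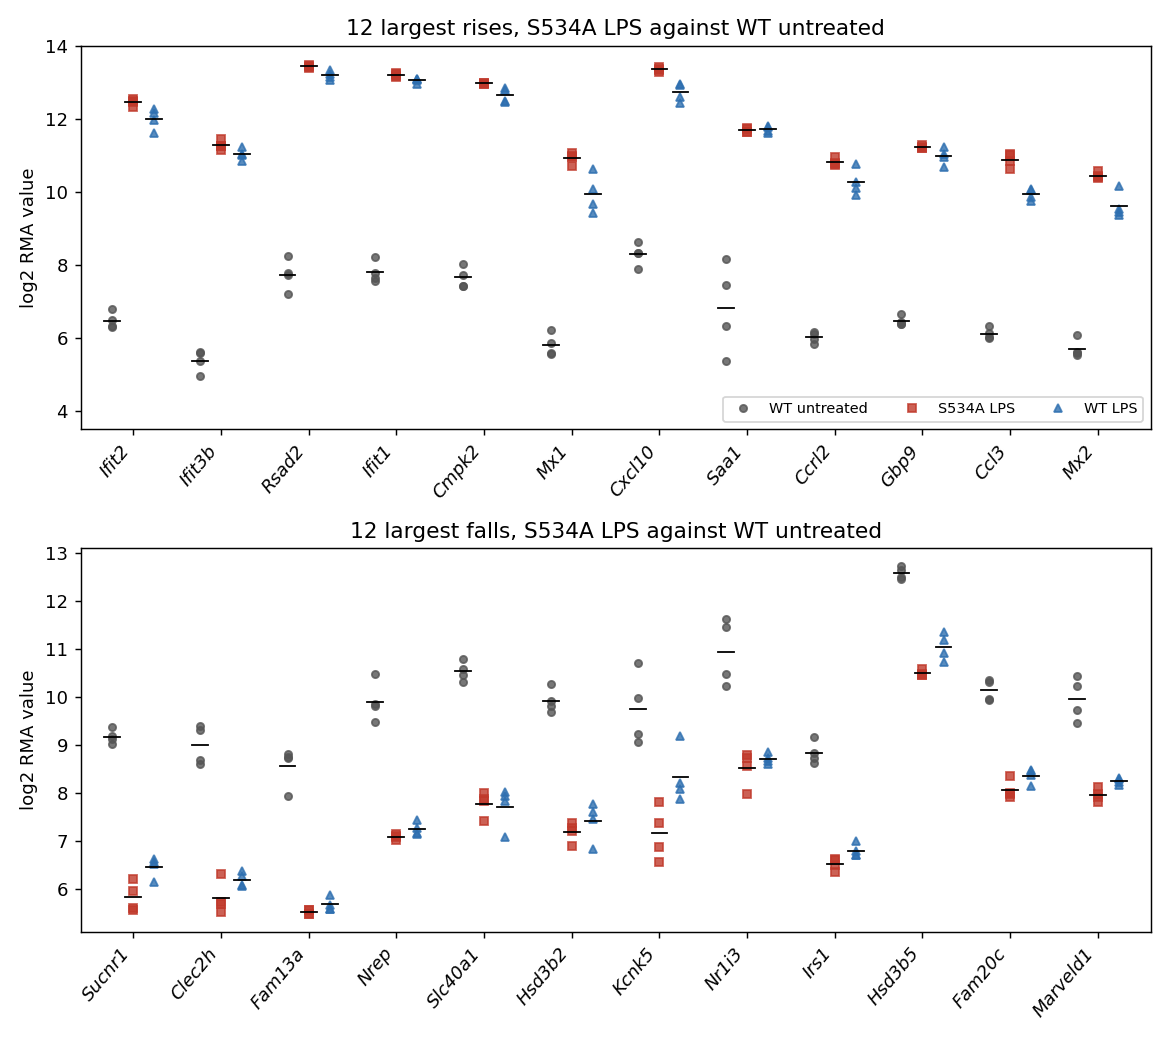
Log2 RMA values (y axis) of the 12 genes with the largest rises (top) and the 12 with the largest falls (bottom) in each array, with black bars at the group means of untreated wild-type, S534A LPS and WT LPS liver (4 arrays each). Among the rises the S534A LPS arrays sit apart from the untreated arrays, by 5.98 for Ifit2 and 4.74 for Mx2; among the falls by -3.34 for Sucnr1 and -2.00 for Marveld1.

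Promoters of 4 of the 12 largest rises are shown, chosen because they hold the searched word, since interferon-stimulated genes are known to carry interferon-stimulated response elements (ISRE) near their starts. The RefSeq promoter table (GRCm38.p6, a window from upstream of the start to 50 bases after it) was searched on both strands for an ISRE-like word, GAAANNGAA, and a kappaB-like word, GGGANTTTC; the words do not overlap in definition, and a match is a description of letters only. Capitals mark ISRE-like words, which read as the reverse complement of that word where they lie on the other strand. The promoter of Ifit3b (plus strand, chr19:34607707-34608006) held 3, those of Rsad2 (minus strand, chr12:26456403-26456702) 1, Ifit1 (plus strand, chr19:34640639-34640938) 3, overlapping in part, and Cxcl10 (minus strand, chr5:92348840-92349139) 1. The table held a promoter for 9 of the 12 genes, of which 5 had the ISRE-like word: these 4 and Ccl3 (1 match). Ifit2, with the largest rise, Cmpk2, Saa1 and Ccrl2 had no ISRE-like word in any promoter listed. None of the 9 genes had the exact kappaB-like word searched. Other forms of a kappaB site were not searched, so this does not show that such sites are absent. The Cxcl10 promoter, for example, holds the similar letters gggaaattcc and gggacttccc, which that word does not match.
Ifit3b: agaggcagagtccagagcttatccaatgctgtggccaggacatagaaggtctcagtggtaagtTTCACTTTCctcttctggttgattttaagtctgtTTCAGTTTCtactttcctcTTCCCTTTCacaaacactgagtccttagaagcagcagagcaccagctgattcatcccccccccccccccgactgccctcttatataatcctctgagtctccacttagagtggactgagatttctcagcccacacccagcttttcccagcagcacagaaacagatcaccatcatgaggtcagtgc
Rsad2: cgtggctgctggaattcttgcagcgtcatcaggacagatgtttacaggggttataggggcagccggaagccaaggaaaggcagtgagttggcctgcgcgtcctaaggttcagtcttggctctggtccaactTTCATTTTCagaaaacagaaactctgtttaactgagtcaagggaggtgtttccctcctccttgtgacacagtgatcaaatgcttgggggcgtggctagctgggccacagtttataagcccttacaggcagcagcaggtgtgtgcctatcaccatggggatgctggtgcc
Ifit1: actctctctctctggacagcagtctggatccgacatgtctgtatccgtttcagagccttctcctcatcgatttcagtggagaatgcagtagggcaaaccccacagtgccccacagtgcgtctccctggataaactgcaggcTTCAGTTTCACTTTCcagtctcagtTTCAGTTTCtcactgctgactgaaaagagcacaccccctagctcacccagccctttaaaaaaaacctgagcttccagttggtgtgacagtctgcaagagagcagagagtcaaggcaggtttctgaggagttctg
Cxcl10: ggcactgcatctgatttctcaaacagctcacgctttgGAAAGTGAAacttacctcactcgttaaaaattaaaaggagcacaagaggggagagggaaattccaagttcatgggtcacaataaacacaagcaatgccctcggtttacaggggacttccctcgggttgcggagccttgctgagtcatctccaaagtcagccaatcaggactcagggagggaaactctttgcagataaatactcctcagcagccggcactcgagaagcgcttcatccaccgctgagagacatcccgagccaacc

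Over all 15563 measured genes with a promoter in the table, 9.2% held the ISRE-like word. The share was 21.6% of the 426 genes that were at least 2-fold higher, 34.9% of the 146 that were at least 4-fold higher and 64% of the 25 that were at least 16-fold higher. Among the 205 genes at least 2-fold lower it was 7.32%. The kappaB-like word was rarer, in 1.26% of all measured genes, 4.69% of those at least 2-fold higher and 6.85% of those at least 4-fold higher. It was in 8% of those at least 16-fold higher (2 of 25) and 0.488% of those at least 2-fold lower. In the type I interferon list 13 of 23 members with a promoter held the ISRE-like word. The kappaB-like word was held by 4 of 12 in the CXC chemokine list, the highest count of any list. It was held by 3 of 15 other cytokines, 2 of 9 NF-kB subunits and IkB proteins and 1 of 12 feedback brakes. Of the interleukin-1 genes 1 of 14 held it, and of the CC chemokines 0 of 10.

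The interferon response as a whole rose nearly completely. In the type I interferon list 32 of the 33 measured members (of 37 listed) rose and the other 1 did not pass, with a median difference of 3.37 against 0.03 over all genes. The member that did not pass, Ifi44l, is given to complete the list and differed by 0.04 ± 0.07. Parp14, an ADP-ribosyltransferase, had the smallest p of the list: it read 8.61, 8.78, 8.58 and 8.70 untreated and 12.01, 12.06, 12.08 and 12.02 in S534A LPS liver (3.37 ± 0.06, adjusted p = 2.14e-12). Herc6, the main ligase that attaches Isg15 in mice, went from 8.20, 8.14, 8.11 and 8.33 to 11.73, 11.72, 11.82 and 11.70 (3.55 ± 0.07). The guanylate-binding proteins and immunity-related GTPases, which attack vacuoles that hold pathogens, were raised together: all 9 measured members (of 18 listed) rose, by 1.38 to 4.76 (median 3.59). Gbp7 read 8.28, 8.27, 8.49 and 8.58 and then 12.19, 11.98, 11.96 and 11.87, and Gbp5 rose by 4.58 ± 0.12 (23.9-fold). Among schlafen and p200 genes, interferon-induced regulators of nucleic acids, 9 of the 11 measured members (of 13 listed) rose and the other 2 did not pass (median 2.10). Slfn4 had 6.00, 5.86, 5.85 and 5.80 untreated and 10.27, 10.50, 10.10 and 10.53 after LPS (4.48 ± 0.10, 22.2-fold), and Slfn9 and Slfn8 rose by 4.26 ± 0.12 and 3.63.

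Interferon signalling itself changed in part. In that list 10 of the 19 measured members (of 20 listed) rose, 1 fell and 8 did not pass, with a median of 0.56. Irf7, the transcription factor that amplifies type I interferon, read 9.59, 9.42, 8.97 and 9.25 untreated and 11.99, 12.16, 12.05 and 12.20 in S534A LPS liver (2.80 ± 0.11, 6.94-fold, adjusted p = 1.14e-09). Irf8, a factor of myeloid cells that is also induced by interferon-gamma, went from 7.82, 7.81, 7.82 and 7.79 to 9.32, 9.23, 9.25 and 9.31 (1.47 ± 0.07). Socs1, which inhibits Jak kinases in feedback, was at 7.08, 6.84, 7.00 and 6.96 and 8.53, 8.32, 8.41 and 8.37 (1.44 ± 0.07, 2.7-fold). The transcripts of the receptors and ligands, named to account for the list, did not pass: Ifnar1 differed by -0.18 ± 0.09, Ifnar2 by -0.04 ± 0.09 and Ifnb1 by 0.11 ± 0.08. The member that fell, Irf3, did so by 0.22 ± 0.06. Among the interferon signalling factors, the number that fell (1) became 0 without untreated replicates 1 and 3.

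Antigen processing genes of the class I pathway rose. In the list 12 of the 18 measured members (of 21 listed) rose and the other 6 did not pass (median 0.91). Tap1, a subunit of the peptide transporter into the endoplasmic reticulum, read 8.51, 8.42, 8.75 and 8.29 in untreated and 11.54, 11.54, 11.47 and 11.57 in S534A LPS liver (3.04 ± 0.09, 8.2-fold). Tap2, its partner, read 8.34, 8.30, 8.35 and 8.21 and 9.89, 9.87, 9.75 and 9.88 (1.55 ± 0.06), and the related chaperone Tapbpl rose by 2.16 ± 0.06. The class II genes, named to account for the members that did not pass, had differences of 0.26 ± 0.23 for H2-Ab1, -0.07 ± 0.21 for H2-Aa and 0.05 ± 0.19 for Cd74. Of the co-stimulatory and checkpoint ligands 7 of the 10 measured members rose and the other 3 did not pass (median 0.48). Cd274 (PD-L1), the ligand of the checkpoint receptor PD-1, went from 6.70, 6.58, 6.86 and 6.95 to 11.27, 11.40, 11.43 and 11.36 (4.60 ± 0.11, 24.2-fold, adjusted p = 6.51e-12). Cd40 was at 7.15, 7.12, 7.16 and 7.05 and 9.34, 9.29, 9.38 and 9.15 (2.17 ± 0.09), and Icosl, ligand of the T cell receptor Icos, rose by 0.70 ± 0.08.

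The NF-kB system was raised at the level of its subunits, its inhibitors and its feedback brakes. In the list of NF-kB subunits, IkB proteins and IkB kinases 10 of the 12 measured members (of 14 listed) rose and the other 2 did not pass (median 1.09). Nfkb2, the precursor of p52, read 7.24, 7.36, 7.38 and 7.23 untreated and 9.70, 9.57, 9.54 and 9.48 in S534A LPS liver (2.27 ± 0.07, 4.82-fold). Nfkbie, the inhibitor IkB-epsilon, read 6.75, 6.44, 6.87 and 6.68 and 9.16, 8.98, 9.13 and 8.96 (2.37 ± 0.09). Nfkbia, the inhibitor IkB-alpha and a classical NF-kB target, read 9.11, 9.73, 9.07 and 9.66 and 10.11, 10.43, 10.17 and 10.51 (0.91 ± 0.15, adjusted p = 0.000417). Rel and Ikbkb, the members that did not pass, differed by 0.10 ± 0.10 and 0.04 ± 0.08. Of the brakes, 9 of the 12 measured members rose and the other 3 did not pass (median 0.86). Irak3, a pseudokinase that blocks Myd88 signalling, went from 6.09, 6.54, 6.44 and 6.56 to 10.17, 10.04, 9.98 and 10.07 (3.66 ± 0.11, 12.6-fold). Tnfaip3 (A20), a ubiquitin-editing enzyme, went from 6.74, 6.78, 6.95 and 6.69 to 8.71, 9.15, 8.78 and 9.10 (2.15 ± 0.11, 4.42-fold), and N4bp1 rose by 2.15 ± 0.13.

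Genes of LPS recognition rose at several steps, while Tlr4 itself did not pass. In the list 13 of the 20 measured members (of 24 listed) rose, 1 fell and 6 did not pass (median 0.69). Tlr2, the receptor for bacterial lipoproteins, read 6.54, 7.12, 6.91 and 6.68 in untreated and 11.35, 11.42, 11.39 and 11.26 in S534A LPS liver (4.55 ± 0.10, 23.3-fold, adjusted p = 6.51e-12). Myd88, the shared adaptor, went from 9.80, 9.77, 9.79 and 10.07 to 12.10, 12.13, 12.06 and 12.09 (2.24 ± 0.08), and Tlr3, which senses double-stranded RNA, from 7.34, 7.21, 7.49 and 7.11 to 9.69, 10.03, 10.07 and 10.01 (2.67 ± 0.11). The LPS receptor components, named for their role, differed by 3.41 ± 0.17 for Cd14, 1.37 ± 0.12 for Lbp, 0.14 ± 0.11 for Tlr4 and -0.21 ± 0.21 for Ly96, and the last pair did not pass. Among the Toll-like receptor pathway genes, the number that fell (1) became 0 without untreated replicates 1 and 3.

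Chemokines that attract monocytes, lymphocytes and neutrophils rose, and others of the same families did not pass. Of the CC chemokines 10 of the 16 measured members (of 17 listed) rose, 1 fell and 5 did not pass (median 0.29). Ccl2, the main monocyte attractant, read 6.48, 6.22, 6.59 and 6.24 in untreated and 10.28, 10.28, 10.04 and 10.72 in S534A LPS liver (3.95 ± 0.14, 15.4-fold). Ccl5, made by T cells and many activated cells, read 7.54, 7.52, 7.46 and 7.92 and 11.50, 11.42, 11.45 and 11.31 (3.81 ± 0.10, 14.1-fold). Among the CC chemokines, the number that fell (1) became 0 without any single array but untreated array 2 or WT LPS array 2, 0 without the 3 LPS arrays with pancreas transcripts and 0 without untreated replicates 1 and 3. Of the CXC and CX3C chemokines 9 of the 15 measured members rose, 1 fell and 5 did not pass (median 0.90). The Cxcr3 ligands rose together: Cxcl9 went from 8.82, 8.80, 9.42 and 9.30 to 13.39, 13.37, 13.34 and 13.26 (4.25 ± 0.12, 19.1-fold), and Cxcl11 from 7.15, 7.34, 7.26 and 7.01 to 9.94, 9.90, 9.99 and 9.94 (2.75 ± 0.10). Cxcl1, a neutrophil attractant, varied more among the S534A LPS arrays, with 8.16, 7.99, 8.08 and 7.91 untreated and 9.66, 10.01, 9.20 and 10.73 in S534A LPS liver (1.86 ± 0.36, adjusted p = 0.00171). The member that fell, Cxcl12, keeps haematopoietic cells in their niche and fell by 0.80 ± 0.10.

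Cytokine genes rose selectively. In the interleukin-1 list 11 of the 15 measured members (of 16 listed) rose, 1 fell and 3 did not pass (median 1.23). The receptor antagonist Il1rn had the smallest p of the list, with 6.88, 7.15, 7.02 and 7.52 untreated and 10.58, 10.27, 10.29 and 10.08 in S534A LPS liver (3.16 ± 0.14, 8.94-fold). Il1b read 6.84, 7.22, 6.72 and 7.11 and 9.45, 9.58, 9.61 and 10.02 (2.69 ± 0.15, 6.46-fold), and Il1a 8.20, 7.84, 8.28 and 8.40 and 9.29, 9.54, 9.46 and 9.46 (1.26 ± 0.13, 2.39-fold). Il1f9 (interleukin-36 gamma) rose by 1.84 ± 0.09, and Casp4 (caspase-11), the intracellular LPS sensor that drives pyroptosis, rose by 2.34 ± 0.13. Among the interleukin-1 genes, the number that fell (1) became 0 without untreated replicates 2 and 4.

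Among the other cytokines 10 of the 20 measured members rose, 1 fell and 9 did not pass (median 0.39). Tnf read 6.93, 6.89, 6.97 and 6.65 in untreated and 9.46, 9.45, 9.53 and 9.48 in S534A LPS liver (2.62 ± 0.08, 6.14-fold, adjusted p = 1.18e-10). Tnfsf10 (TRAIL), a death ligand, read 7.30, 7.65, 7.37 and 7.46 and 11.20, 11.28, 11.31 and 11.23 (3.81 ± 0.10, 14-fold). Csf1, the macrophage growth factor, rose by 1.44 ± 0.08. Il6 was dim in every array and its S534A LPS arrays were unequal, at 5.11, 5.75, 5.14 and 5.84 against 4.64, 4.57, 4.59 and 4.63 untreated (0.85 ± 0.15, adjusted p = 0.000917). Hgf, the hepatocyte growth factor and the member that fell, is given to complete the count (-1.06 ± 0.14).

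Downstream of interleukin-6 type cytokines, 10 of the 14 measured members (of 15 listed) rose and the other 4 did not pass (median 0.81). Stat3 went from 10.54, 10.69, 10.72 and 10.63 to 12.19, 12.10, 12.06 and 12.07 (1.46 ± 0.06, adjusted p = 1.01e-09). Osmr, the oncostatin M receptor, went from 6.79, 6.96, 7.17 and 7.45 to 9.62, 9.87, 9.70 and 9.67 (2.62 ± 0.15, 6.15-fold), and the kinase gene Pim1 rose by 1.43 ± 0.10. Among the gp130 and STAT3 genes, the number that fell (0) became 1 without untreated array 2 or WT LPS array 1, 2 or 4 and 1 without untreated replicates 1 and 3.

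Acute phase proteins rose as a group, with the serum amyloid genes far ahead of the rest. In the list 21 of the 27 measured members (of 30 listed) rose, 1 fell and 5 did not pass (median 0.48). Saa3, the extrahepatic serum amyloid made by macrophages and fat as well as liver, read 7.90, 7.89, 8.54 and 8.75 in untreated and 13.02, 13.05, 13.09 and 12.86 in S534A LPS liver (4.74 ± 0.16, 26.6-fold). Serpina10, the protein Z-dependent protease inhibitor, read 11.03, 10.92, 11.11 and 11.19 and 12.34, 12.32, 12.30 and 12.27 (1.25 ± 0.07), and Serpina3n 12.75, 12.74, 12.70 and 12.78 and 13.67, 13.63, 13.66 and 13.61 (0.90 ± 0.05). The abundant fibrinogen and haptoglobin genes, named to show the range, moved less, with 0.22 ± 0.05 for Fgb and 0.37 ± 0.06 for Hp. Their untreated levels were 13.42 ± 0.03 and 13.15 ± 0.10 (SD, n = 4). Whether a high untreated level limited their measured rise was not tested. Among the acute phase genes, the number that fell (1) became 0 without untreated replicates 2 and 4. Of the negative acute phase genes, liver export proteins known to decline in inflammation, 3 of the 12 measured members fell and the other 9 did not pass (median -0.12). Igfals, which carries Igf1 in plasma, went from 10.60, 10.10, 10.58 and 10.49 to 9.80, 9.71, 9.66 and 9.47 (-0.78 ± 0.11, adjusted p = 0.000167), while Rbp4 and Ttr, carriers of retinol and thyroid hormone, fell by 0.23 ± 0.06 and 0.16 ± 0.05. Ttr was not called without untreated array 1, 2 or 4, S534A LPS array 1, 2 or 4 or untreated replicates 1 and 3 or 2 and 4, nor with repeated quantile normalisation, with median centring or with the replicate block (log2 differences of -0.19 to -0.13 over the settings run, adjusted p up to 0.163). Rbp4 was not called without untreated replicates 2 and 4 (log2 differences of -0.28 to -0.18 over the settings run, adjusted p up to 0.0962). Albumin, named as the main member, differed by 0.04 ± 0.05 and did not pass. Among the negative acute phase genes, the number that fell (3) became 5 without WT LPS array 2 and 1 without untreated replicates 2 and 4.

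Iron and metal genes moved both ways. Of this list 5 of the 15 measured members rose, 5 fell and 5 did not pass (median -0.05). The metallothioneins, which bind zinc and copper, were strongly up: Mt1 read 9.76, 10.29, 10.46 and 10.30 in untreated and 13.52, 13.53, 13.49 and 13.51 in S534A LPS liver (3.31 ± 0.12, 9.93-fold), and Mt2 9.56, 10.06, 11.21 and 10.32 and 13.93, 13.92, 13.95 and 13.89 (3.63 ± 0.24, 12.4-fold). Slc40a1 (ferroportin), which exports iron from cells, went from 10.46, 10.31, 10.58 and 10.80 to 8.00, 7.83, 7.87 and 7.42 (-2.76 ± 0.19, 6.76-fold lower, adjusted p = 2.74e-07). Slc11a2, which imports iron, rose by 1.42 ± 0.08. Hepcidin (Hamp), named as the hormone that controls ferroportin protein, differed by -0.05 ± 0.08 and did not pass.

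Coagulation genes fell more often than they rose: 3 of the 22 measured members (of 23 listed) rose, 9 fell and 10 did not pass (median -0.14). F13b, a subunit of the clot-crosslinking factor XIII, went from 11.03, 11.10, 10.98 and 11.29 to 10.42, 10.61, 10.71 and 10.60 (-0.51 ± 0.09). Thbs1 (thrombospondin) and Plaur (the urokinase receptor) went the other way, Thbs1 from 6.32, 6.14, 6.31 and 6.08 to 8.50, 8.53, 8.30 and 8.02 (2.13 ± 0.11, 4.37-fold) and Plaur by 0.89 ± 0.09. In complement, 4 of the 21 measured members (of 24 listed) rose, 3 fell and 14 did not pass (median -0.05), beside 11.0% higher and 16.0% lower over all genes. C5ar1, the receptor for the anaphylatoxin C5a, read 5.68, 5.74, 5.43 and 5.71 in untreated and 7.60, 7.71, 7.70 and 7.69 in S534A LPS liver (2.03 ± 0.10, 4.1-fold), Cfb rose by 0.36 ± 0.05, and Masp1, a protease of the lectin pathway, fell by 0.43 ± 0.06. Among the complement genes, the number that fell (3) became 1 without untreated array 1 or 4 or S534A LPS array 1, 2 or 3, 1 without untreated replicates 1 and 3 and 1 without untreated replicates 2 and 4.

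Genes of cell death signalling rose. In the list 11 of the 19 measured members (of 22 listed) rose and the other 8 did not pass (median 0.51). Mlkl, the executioner of necroptosis, read 7.07, 6.33, 7.07 and 6.55 in untreated and 10.26, 10.29, 10.16 and 10.17 in S534A LPS liver (3.46 ± 0.16, 11-fold, adjusted p = 4.59e-09). The death receptor Fas read 7.38, 7.09, 7.61 and 7.11 and 9.57, 9.54, 9.52 and 9.54 (2.25 ± 0.11), and Gadd45b, which protects cells from Tnf-induced death, rose by 3.03 ± 0.15. Among the cell death genes, the number that fell (0) became 1 without untreated array 3 and 2 without untreated replicates 1 and 3.

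Of the endothelial activation genes 11 of the 15 measured members (of 17 listed) rose, 2 fell and 2 did not pass (median 0.61). Icam1 and Vcam1, to which leukocytes attach, went from 8.12, 7.97, 8.22 and 8.16 to 10.75, 10.63, 10.70 and 10.43 (2.51 ± 0.08) and by 2.38 ± 0.14. Nos2, the inducible nitric oxide synthase, went from 5.80, 5.69, 5.91 and 5.34 to 7.84, 8.00, 8.03 and 7.33 (2.11 ± 0.20). Among the endothelial activation genes, the number that fell (2) became 1 without untreated array 1, 3 or 4 or S534A LPS array 3, 1 without untreated replicates 1 and 3 and 0 without untreated replicates 2 and 4. Among matrix metalloproteinases and their inhibitors 8 of the 13 measured members rose, 3 fell and 2 did not pass (median 0.47). Mmp13, a collagenase, read 5.73, 5.80, 5.49 and 5.58 in untreated and 9.05, 9.79, 9.44 and 9.42 in S534A LPS liver (3.78 ± 0.15, 13.7-fold), Mmp8, the collagenase of neutrophils, rose by 2.68 ± 0.23, and the inhibitor Timp1 rose by 2.25 ± 0.18.

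Receptors and enzymes of activated myeloid cells rose, while the largest fall of all named genes was also in this list. Of these genes 14 of the 16 measured members (of 18 listed) rose and 2 fell (median 1.24). Acod1, which makes the antibacterial metabolite itaconate, read 6.15, 6.06, 6.19 and 5.73 in untreated and 10.61, 10.56, 10.67 and 10.82 in S534A LPS liver (4.63 ± 0.10, 24.8-fold). Hcar2, a receptor for beta-hydroxybutyrate, read 5.43, 5.24, 5.37 and 5.24 and 9.22, 9.14, 9.22 and 9.08 (3.85 ± 0.09, 14.4-fold). Sucnr1, the succinate receptor, is described with the falls. Among the myeloid effectors, the number that fell (2) became 1 without untreated array 3 or 4 or S534A LPS array 2 or 4 and 1 without untreated replicates 1 and 3.

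Early response transcription factors changed in part: 8 of the 22 measured members rose, 1 fell and 13 did not pass (median 0.18). Mxd1, a Max partner that opposes Myc, went from 7.63, 8.07, 7.82 and 8.15 to 10.19, 10.54, 10.51 and 10.57 (2.53 ± 0.12, 5.79-fold), while Ier3 and Fosl2 rose by 1.06 ± 0.11 and 0.64. Among the immediate early genes, the number that fell (1) became 0 without any single array but untreated array 1, untreated array 3, S534A LPS array 2 or WT LPS array 2, 0 without the 3 LPS arrays with pancreas transcripts, 3 without untreated replicates 1 and 3 and 0 without untreated replicates 2 and 4. Of the glucocorticoid targets 2 of the 11 measured members (of 12 listed) rose and the other 9 did not pass (median 0.12). Zbtb16 read 8.56, 8.66, 8.50 and 8.63 in untreated and 10.69, 10.75, 10.60 and 10.72 in S534A LPS liver (2.10 ± 0.09), and Fkbp5, a co-chaperone of the glucocorticoid receptor, read 7.62, 8.55, 8.25 and 8.91 and 9.72, 10.21, 9.97 and 9.72 (1.57 ± 0.24).

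**Figure D3:**
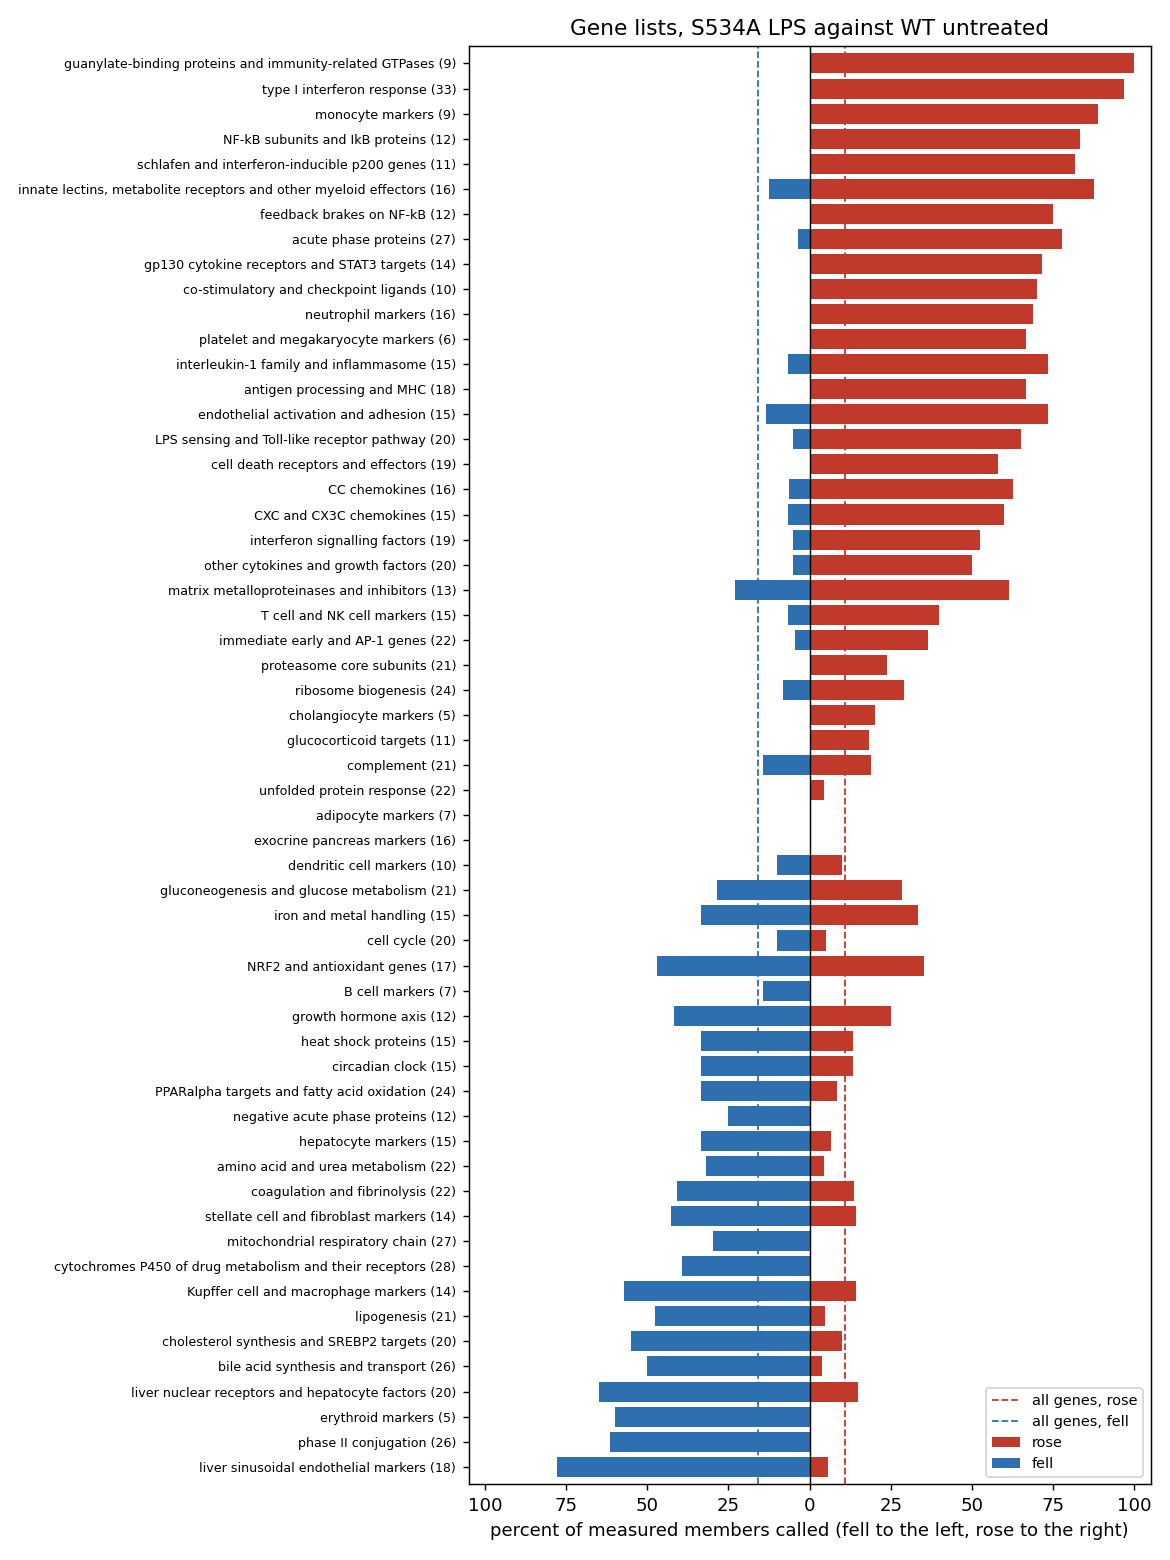
For each of the 57 gene lists (measured members in brackets) the bars give the percent of members that rose (red, to the right) and fell (blue, to the left) in S534A LPS against untreated wild-type liver, on an x axis in percent. The dashed lines mark the shares over all genes, 11.0% higher and 16.0% lower; interferon, GTPase and NF-kB lists reach far beyond the red line, while sinusoidal endothelial and phase II lists reach far beyond the blue one.

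The 12 largest falls were each smaller than the 12 largest rises. Sucnr1 (probe set 10492306), the succinate receptor, read 9.38, 9.13, 9.02 and 9.18 in untreated and 5.61, 5.58, 6.21 and 5.97 in S534A LPS liver (-3.34 ± 0.14, 10.1-fold lower, adjusted p = 2.22e-09). Clec2h (probe set 10542112), a C-type lectin of the Nkrp1 ligand family, read 9.31, 8.69, 8.60 and 9.39 and 6.32, 5.69, 5.53 and 5.73 (-3.18 ± 0.20, 9.04-fold lower). Fam13a (probe set 10545045) read 7.95, 8.74, 8.81 and 8.75 and 5.57, 5.57, 5.48 and 5.48 (-3.04 ± 0.16, 8.2-fold lower), with untreated replicate 1 below the other untreated arrays. The groups did not overlap in any of these, as the choice of the largest falls required. Nrep (probe set 10458046) had 9.48, 9.81, 9.85 and 10.48 untreated and 7.10, 7.15, 7.09 and 7.02 after LPS (-2.82 ± 0.16). Hsd3b2 and Hsd3b5, hydroxysteroid dehydrogenases of which Hsd3b5 is enriched in male liver, had 9.92, 9.81, 9.68 and 10.27 against 6.91, 7.22, 7.39 and 7.28 (-2.72 ± 0.18) and 12.65, 12.49, 12.46 and 12.73 against 10.46, 10.47, 10.59 and 10.45 (-2.09 ± 0.11).

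Nr1i3 (CAR), the nuclear receptor that induces drug-metabolising enzymes, read 10.22, 11.46, 10.47 and 11.62 in untreated and 7.99, 8.57, 8.80 and 8.74 in S534A LPS liver (-2.42 ± 0.28, 5.34-fold lower, adjusted p = 3.02e-05). Its untreated values were higher in replicates 2 and 4 than in replicates 1 and 3, the same split as the clock genes. Ccne1, Ppara, Nfkbia, Stard4 and Nop58, among others, were split in the same way. Each of these stayed called in every setting run, but the size depended on the setting. It was 0.41 to 1.53 for Ccne1, -1.38 to -0.64 for Ppara and 0.61 to 1.22 for Nfkbia. Irs1, an adaptor of the insulin receptor, read 8.63, 8.83, 8.74 and 9.16 and 6.51, 6.37, 6.62 and 6.64 (-2.31 ± 0.11, 4.94-fold lower). Kcnk5, a potassium channel, was variable in both groups, at 9.07, 10.70, 9.23 and 9.98 and 6.56, 6.89, 7.82 and 7.38 (-2.59 ± 0.38). Fam20c, a kinase of secreted proteins, and Marveld1 fell by 2.07 ± 0.13 and 2.00 ± 0.17.

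Drug metabolism genes fell where they changed. Of the cytochromes P450 of drug metabolism and their receptors 11 of the 28 measured members (of 31 listed) fell and the other 17 did not pass (median -0.23). Beside Nr1i3, the smallest p values were those of Cyp2d10, which went from 11.16, 11.12, 11.26 and 11.20 to 10.53, 10.62, 10.92 and 10.68 (-0.50 ± 0.09), and Cyp2d22, from 12.47, 12.61, 12.51 and 12.73 to 12.11, 12.27, 12.26 and 12.27 (-0.35 ± 0.07). Cyp3a11, the main drug-metabolising P450 of mouse liver, is named as a member that did not pass (0.16 ± 0.17). P450 genes of 1 subfamily are close in sequence, so their probe sets can share signal. Among the P450 genes, the number that rose (0) became 1 without untreated replicates 1 and 3, while the number that fell (11) became 7 without untreated array 4 or S534A LPS array 4 and 7 without untreated replicates 2 and 4. Phase II conjugation enzymes fell more uniformly: 16 of the 26 measured members (of 30 listed) fell and the other 10 did not pass (median -0.29, range -1.22 to -0.01). Ugt2b35, a glucuronosyltransferase, read 10.48, 10.45, 10.63 and 10.90 in untreated and 9.10, 9.63, 9.51 and 9.35 in S534A LPS liver (-1.22 ± 0.15, 2.33-fold lower), Ugt2b5 read 12.26, 12.09, 12.24 and 12.41 and 11.27, 11.65, 11.65 and 11.52 (-0.73 ± 0.10), and Gstp1, a glutathione transferase, fell by 0.42 ± 0.06.

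Bile acid genes fell at the level of synthesis and of transport. In the list 1 of the 26 measured members rose, 13 fell and 12 did not pass (median -0.38). Akr1d1, a reductase of bile acid synthesis, went from 10.50, 10.99, 10.74 and 10.71 to 9.76, 9.73, 9.84 and 9.72 (-0.97 ± 0.10, adjusted p = 1.6e-05). Abcc2, which exports conjugated bilirubin into bile, went from 11.99, 12.32, 12.11 and 12.31 to 11.12, 11.39, 11.51 and 11.38 (-0.83 ± 0.11). Slc51b, a subunit of the basolateral bile acid exporter, was the member that rose, from 6.12, 6.21, 6.07 and 6.01 to 7.02, 6.89, 7.10 and 6.81 (0.86 ± 0.09). Cyp7a1, the rate-limiting enzyme of synthesis, is named for its role: it was uneven, at 10.56, 12.16, 11.35 and 11.86 untreated and 8.11, 10.62, 10.88 and 10.03 after LPS, with overlapping groups (-1.57 ± 0.54, adjusted p = 0.0471). Its call lay close to the threshold and was not followed without single arrays. Among the bile acid genes, the number that rose (1) became 2 without untreated array 1, S534A LPS array 1 or WT LPS array 2 and 3 without untreated replicates 1 and 3.

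Cholesterol synthesis and SREBP2 target genes were mostly lower: 2 of the 20 measured members (of 24 listed) rose, 11 fell and 7 did not pass (median -0.35). Stard4, a cholesterol carrier, went from 10.12, 10.53, 10.08 and 10.76 to 9.08, 9.26, 9.41 and 8.94 (-1.20 ± 0.17), Sc5d, a late enzyme of the pathway, from 12.57, 12.42, 12.42 and 12.46 to 11.69, 11.87, 11.91 and 11.72 (-0.67 ± 0.08), and Msmo1 fell by 0.74 ± 0.11. Among the cholesterol genes, the number that rose (2) became 1 without untreated array 2 or S534A LPS array 2 or 3, 0 without the 3 LPS arrays with pancreas transcripts and 0 without untreated replicates 2 and 4, while the number that fell (11) became 7 without untreated replicates 1 and 3. In lipogenesis 1 of the 21 measured members rose, 10 fell and 10 did not pass (median -0.41). Gpam, which starts triglyceride synthesis, read 11.37, 11.16, 10.95 and 11.00 in untreated and 9.85, 9.86, 10.17 and 10.06 in S534A LPS liver (-1.14 ± 0.11, 2.2-fold lower), and the desaturases Fads1 and Fads2 fell by 0.39 ± 0.06 and 0.45 ± 0.08. Fasn, named as the central enzyme of the pathway, did not pass (-0.43 ± 0.21, adjusted p = 0.158). Among the lipogenic genes, the number that rose (1) became 0 without untreated array 1 or S534A LPS array 1 and 0 without the 3 LPS arrays with pancreas transcripts, while the number that fell (10) became 6 without untreated replicates 2 and 4.

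Fatty acid oxidation genes changed less. Of the PPARalpha targets 2 of the 24 measured members (of 26 listed) rose, 8 fell and 14 did not pass (median -0.17). Ppara itself, the receptor that drives this program in fasting, went from 10.91, 11.57, 10.98 and 11.80 to 10.16, 10.31, 10.42 and 10.32 (-1.01 ± 0.19, 2.02-fold lower), the co-activator Ppargc1a from 8.55, 8.58, 8.85 and 8.75 to 7.63, 7.51, 7.65 and 7.71 (-1.06 ± 0.21), and Bdh1, which interconverts ketone bodies, fell by 0.55 ± 0.11. Among the PPARalpha targets, the number that rose (2) became 4 without untreated replicates 2 and 4, while the number that fell (8) became 5 without untreated array 4 or S534A LPS array 1 and 5 without untreated replicates 2 and 4.

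Glucose metabolism was mixed: 6 of the 21 measured members (of 23 listed) rose, 6 fell and 9 did not pass (median -0.15). Hk2 and Hk3, hexokinases that are low in hepatocytes, rose by 0.96 ± 0.07 and 0.34, with Hk2 at 6.39, 6.38, 6.56 and 6.30 untreated and 7.44, 7.45, 7.26 and 7.31 after LPS. Pfkfb3, a glycolytic regulator named as the largest rise of the list, rose by 2.36 ± 0.50. Among the glucose genes, the number that rose (6) became 3 without untreated array 3 or S534A LPS array 2 or 4 and 3 without untreated replicates 1 and 3, while the number that fell (6) became 3 without untreated array 2 or S534A LPS array 1 or 2. In the growth hormone axis 3 of the 12 measured members rose, 5 fell and 4 did not pass (median -0.35). Ghr, the growth hormone receptor, went from 12.33, 12.30, 12.26 and 12.32 to 11.80, 11.88, 11.97 and 11.89 (-0.42 ± 0.06), and Igfbp3 from 9.50, 9.15, 9.46 and 9.21 to 8.65, 8.35, 8.15 and 8.51 (-0.92 ± 0.14). Of the amino acid and urea genes 1 of the 22 measured members (of 26 listed) rose, 7 fell and 14 did not pass (median -0.08). Arg2, the mitochondrial arginase, read 5.58, 5.58, 5.53 and 5.71 in untreated and 6.90, 6.75, 6.68 and 6.74 in S534A LPS liver (1.16 ± 0.09), while Ido2 fell by 0.76 ± 0.12 and the urea cycle enzyme Otc by 0.37 ± 0.08. Among the amino acid genes, the number that rose (1) became 2 without untreated replicates 1 and 3, while the number that fell (7) became 3 without untreated replicates 2 and 4.

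Of the nuclear receptors and transcription factors that set hepatocyte identity 3 of the 20 measured members (of 22 listed) rose, 13 fell and 4 did not pass (median -0.48). Beside Nr1i3, Nr2f2 (COUP-TFII) read 8.71, 8.99, 8.84 and 9.14 in untreated and 7.60, 7.47, 7.85 and 7.76 in S534A LPS liver (-1.25 ± 0.10, adjusted p = 9.72e-07), and Rara, a retinoic acid receptor, 8.28, 9.01, 8.44 and 8.60 and 7.62, 7.48, 7.52 and 7.38 (-1.09 ± 0.13). Hnf4a, the master regulator of the hepatocyte, is named as a member that did not pass (0.19 ± 0.07). Among the nuclear receptors and hepatocyte factors, the number that rose (3) became 1 without untreated array 1 or 3 or S534A LPS array 2, 3 or 4, 1 without the 3 LPS arrays with pancreas transcripts and 1 without untreated replicates 1 and 3.

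The count of protein folding genes that rose depended on which untreated arrays were used. In the unfolded protein response list 1 of the 22 measured members rose and the other 21 did not pass (median 0.28), and the mean level of the list was 10.78, 10.37, 10.80 and 10.45 in the untreated replicates against 10.99, 10.97, 10.84 and 10.79 in S534A LPS liver. Untreated replicates 1 and 3 were thus near the treated level, and replicates 2 and 4 below it. Among the unfolded protein response genes, the number that rose (1) became 4 without untreated array 1, 9 without untreated array 3, 13 without untreated replicates 1 and 3 and 2 without untreated replicates 2 and 4. Xbp1, a transcription factor of this response, was the member that rose (12.17, 11.89, 12.38 and 12.55 untreated, 12.84, 12.89, 12.81 and 12.78 after LPS, 0.58 ± 0.11). Of the heat shock genes 2 of the 15 measured members (of 18 listed) rose, 5 fell and 8 did not pass (median -0.02), beside 11.0% higher and 16.0% lower over all genes: the co-chaperone Bag3 read 9.44, 9.94, 9.17 and 9.34 and 10.76, 10.83, 10.45 and 10.69 (1.21 ± 0.14), Hspa1a rose by 1.11 ± 0.16, and the small heat shock gene Cryab fell by 0.46 ± 0.07. Among the heat shock genes, the number that fell (5) became 3 without untreated array 1 or 2 or S534A LPS array 1 or 4 and 2 without untreated replicates 2 and 4.

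Antioxidant genes also split: 6 of the 17 measured members (of 19 listed) rose, 8 fell and 3 did not pass (median -0.18). Sod2, the mitochondrial superoxide dismutase and an NF-kB target, went from 11.82, 11.85, 11.81 and 11.87 to 12.35, 12.41, 12.42 and 12.30 (0.53 ± 0.05), and Keap1, the repressor of NRF2, from 8.72, 8.75, 8.83 and 8.80 to 9.52, 9.51, 9.43 and 9.61 (0.74 ± 0.06). Gclm, a subunit of the enzyme that starts glutathione synthesis, went down from 12.21, 12.00, 12.33 and 12.31 to 11.49, 11.58, 11.52 and 11.48 (-0.70 ± 0.07). Among the antioxidant genes, the number that fell (8) became 5 without untreated array 2 or S534A LPS array 3 or 4, 5 without the 3 LPS arrays with pancreas transcripts, 4 without untreated replicates 1 and 3 and 5 without untreated replicates 2 and 4. Respiratory chain genes moved little, within -0.39 to 0.05: 8 of the 27 measured members (of 28 listed) fell and the other 19 did not pass (median -0.12). The smallest p values were those of Ndufb5, Sdhd and Cox5b, which fell by 0.39 ± 0.07, 0.38 ± 0.08 and 0.25 ± 0.05. Among the respiratory chain genes, the number that fell (8) became 5 without untreated array 1 or 2 or S534A LPS array 1 or 2 and 4 without untreated replicates 2 and 4.

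Of the constitutive proteasome subunits 5 of the 21 measured members rose and the other 16 did not pass (median 0.09). Psma5 stood above the others, at 9.58, 9.53, 9.61 and 9.58 in untreated and 10.44, 10.25, 10.40 and 10.43 in S534A LPS liver (0.81 ± 0.06), while Psmb5 and Psma1 rose by 0.39 ± 0.07 and 0.33. Among the proteasome subunits, the number that fell (0) became 1 without WT LPS array 2. In ribosome biogenesis 7 of the 24 measured members rose, 2 fell and 15 did not pass (median 0.10). Nop58, of the box C/D small nucleolar particles, read 6.67, 7.23, 6.70 and 7.32 and 8.72, 8.80, 8.13 and 8.17 (1.48 ± 0.24, 2.78-fold), Wdr43 rose by 1.26 ± 0.15 and the helicase Ddx21 rose by 0.71 ± 0.13. Among the ribosome biogenesis genes, the number that fell (2) became 1 without untreated array 1, 3 or 4 or S534A LPS array 3, 0 without S534A LPS array 4, 1 without untreated replicates 1 and 3 and 1 without untreated replicates 2 and 4. Of the cell cycle genes 1 of the 20 measured members (of 21 listed) rose, 2 fell and 17 did not pass (median 0.10). Both counts were below the shares over all genes, 11.0% higher and 16.0% lower. Ccne1 (cyclin E1) went from 6.88, 8.01, 6.77 and 7.88 to 8.51, 8.38, 8.11 and 8.42 (0.97 ± 0.24), while E2f1 and Ccne2 fell by 0.39 ± 0.11 and 0.48 ± 0.16. The untreated values of Ccne1 were split between replicates 2 and 4 and replicates 1 and 3. E2f1 was not called without untreated replicates 1 and 3 (log2 differences of -0.51 to -0.26 over the settings run, adjusted p up to 0.115). Ccne2 was not called without untreated array 2 or 4, S534A LPS array 1, 3 or 4, WT LPS array 4, the 3 LPS arrays with pancreas transcripts or untreated replicates 2 and 4, nor with array weights, in a fit of only the 8 arrays or with the replicate block (log2 differences of -0.81 to -0.16 over the settings run, adjusted p up to 0.395). Among the cell cycle genes, the number that rose (1) became 2 without S534A LPS array 3 or WT LPS array 1 or 2 and 2 without the 3 LPS arrays with pancreas transcripts, while the number that fell (2) became 1 without untreated array 2, S534A LPS array 1, 3 or 4 or WT LPS array 4, 1 without the 3 LPS arrays with pancreas transcripts and 1 without untreated replicates 1 and 3.

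Arntl and the Per and Nr1d genes of the clock spanned a wider range among the untreated arrays than the difference between the group means. The circadian clock is a feedback loop in which Arntl and Clock drive the Per, Cry and Nr1d genes, which repress them in turn, so the levels follow the time of day. In the list 2 of the 15 measured members (of 17 listed) rose, 5 fell and 8 did not pass (median -0.16). Arntl read 9.03, 6.29, 9.08 and 6.20 in the untreated replicates and 8.61, 7.93, 7.42 and 8.21 in the S534A LPS replicates (0.40 ± 0.64, adjusted p = 0.698). Per3 read 6.50, 8.71, 6.37 and 8.61 and 6.19, 6.21, 6.39 and 6.29 (-1.28 ± 0.45, adjusted p = 0.0529), Per2 7.33, 9.09, 7.17 and 8.70 and 6.63, 6.93, 7.21 and 7.02 (-1.13 ± 0.36, adjusted p = 0.0331) and Per1 6.58, 9.27, 6.63 and 8.77 and 7.94, 8.87, 8.66 and 8.57 (0.70 ± 0.51, adjusted p = 0.36). In each of these genes untreated replicates 2 and 4 stood together on 1 side and replicates 1 and 3 on the other. Nr1d1 read 11.63, 10.79, 10.62 and 11.71 and 12.02, 11.95, 11.84 and 11.82 (0.72 ± 0.20, adjusted p = 0.0195), and Nr1d2 9.20, 10.41, 9.34 and 10.44 and 9.68, 9.78, 9.89 and 9.66 (-0.09 ± 0.24). Per2 was not called without untreated array 2 or 4, S534A LPS array 1, 2 or 4, the 3 LPS arrays with pancreas transcripts or untreated replicates 2 and 4, nor with array weights or in a fit of only the 8 arrays (log2 differences of -1.95 to -0.30 over the settings run, adjusted p up to 0.262). Nr1d1 was not called without untreated array 2, S534A LPS array 1 or the 3 LPS arrays with pancreas transcripts (log2 differences of 0.53 to 0.89 over the settings run, adjusted p up to 0.0602). Per3 was called without untreated replicate 1, without replicate 3 and without both (-2.39).

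Some clock genes were apart from both sets of untreated arrays. Cry2 read 8.63, 9.35, 8.45 and 9.52 in untreated and 7.41, 7.42, 7.64 and 7.33 in S534A LPS liver (-1.54 ± 0.22, adjusted p = 0.000161). Nfil3, a repressor of D-box genes that cytokines also induce, read 9.04, 7.75, 9.04 and 7.61 and 10.21, 10.07, 9.43 and 9.99 (1.57 ± 0.31, adjusted p = 0.00222). Cry1 read 7.56, 7.52, 7.14 and 7.39 and 7.11, 6.65, 6.99 and 6.96 (-0.48 ± 0.11). The directions of Arntl and Nr1d2 turned when untreated replicate 2 or 4 was left out, and that of Per1 when replicates 1 and 3 were. Arntl (1.80) and Nr1d2 (-0.67) were called without untreated replicates 1 and 3, and Per1 (1.90) without replicates 2 and 4. Among the clock genes, the number that rose (2) became 1 without untreated array 2 or S534A LPS array 1, 1 without the 3 LPS arrays with pancreas transcripts and 7 without untreated replicates 2 and 4, while the number that fell (5) became 2 without untreated array 2 or 4 or S534A LPS array 1 or 2, 3 without S534A LPS array 4, 3 without the 3 LPS arrays with pancreas transcripts, 9 without untreated replicates 1 and 3 and 3 without untreated replicates 2 and 4.

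**Figure D4:**
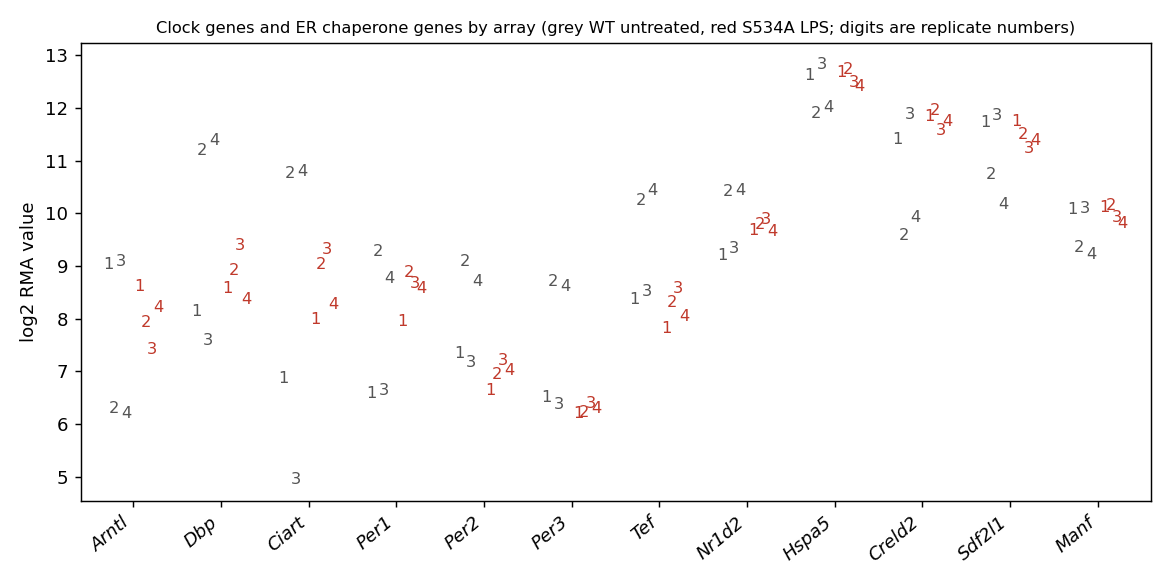
Log2 RMA values (y axis) of 8 clock genes and 4 genes of endoplasmic reticulum folding in untreated wild-type (grey) and S534A LPS (red) liver, each array drawn as its replicate number. Untreated replicates 2 and 4 sit apart from 1 and 3 in every clock gene drawn, for example with Arntl at 9.03, 6.29, 9.08 and 6.20 in replicates 1 to 4, and lie below 1 and 3 in the folding genes.

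Marker genes of other cell types moved with the comparison. In bulk tissue, fewer cells of a type and less RNA per cell cannot be told apart, and the part of cell numbers in the gene lists above was not tested. Of the hepatocyte markers 1 of the 15 measured members (of 16 listed) rose, 5 fell and 9 did not pass (median -0.14). Asgr1, the asialoglycoprotein receptor, went from 11.87, 11.95, 11.87 and 12.01 to 11.67, 11.75, 11.63 and 11.67 (-0.24 ± 0.06) and Fah fell by 0.22 ± 0.05. Asgr1 was not called without untreated replicates 2 and 4 (log2 differences of -0.30 to -0.19 over the settings run, adjusted p up to 0.0621). Fah was not called without untreated replicates 2 and 4 (log2 differences of -0.26 to -0.17 over the settings run, adjusted p up to 0.0608). Among the hepatocyte markers, the number that rose (1) became 0 without any single array but untreated array 2, untreated array 4 or WT LPS array 2, 2 without untreated array 2, 0 without the 3 LPS arrays with pancreas transcripts, 0 without untreated replicates 1 and 3 and 2 without untreated replicates 2 and 4, while the number that fell (5) became 3 without untreated array 1, S534A LPS array 3 or WT LPS array 3 or 4, 2 without untreated array 2 or 4 or S534A LPS array 1, 2 or 4, 3 without the 3 LPS arrays with pancreas transcripts and 1 without untreated replicates 2 and 4.

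Most neutrophil markers rose, while the granule genes Mpo and Elane did not pass. Of the neutrophil list 11 of the 16 measured members rose and the other 5 did not pass (median 1.39), and the list's mean level was 5.67 to 5.91 in untreated and 7.13 to 7.35 in S534A LPS arrays. Retnlg read 4.82, 4.78, 4.65 and 4.72 in untreated and 7.81, 7.41, 7.46 and 7.60 in S534A LPS liver (2.82 ± 0.10, 7.08-fold). S100a9, a subunit of calprotectin, read 6.80, 6.61, 6.83 and 6.53 and 8.97, 8.94, 8.83 and 9.18 (2.29 ± 0.09). Mpo and Elane, named to account for members that did not pass, differed by 0.15 ± 0.08 and 0.01 ± 0.12. Lcn2 is counted here and among the acute phase genes, since activated hepatocytes are known to make it too. Il1f9 and Mmp8 are also counted among the interleukin-1 and the metalloproteinase genes. Of the monocyte markers 8 of the 9 measured members (of 10 listed) rose and the other 1 did not pass (median 0.84): Ms4a6c went from 7.44, 7.43, 7.29 and 7.83 to 9.75, 9.55, 9.50 and 9.68 (2.12 ± 0.15), Ms4a4c rose by 2.33 ± 0.18 and Vcan rose by 1.75 ± 0.11.

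Kupffer cell markers went the other way for the most part. Of that list 2 of the 14 measured members rose, 8 fell and 4 did not pass (median -0.33). Vsig4, a complement receptor of resident macrophages, read 11.17, 10.55, 11.05 and 11.22 in untreated and 9.69, 9.70, 9.81 and 9.66 in S534A LPS liver (-1.28 ± 0.21, 2.43-fold lower), and Mrc1, the mannose receptor, 9.11, 9.21, 9.20 and 9.31 and 8.19, 8.19, 8.28 and 7.84 (-1.08 ± 0.15). Marco, a scavenger receptor that LPS is known to induce, read 6.64, 6.45, 6.26 and 6.46 and 7.77, 7.67, 7.78 and 8.42 (1.46 ± 0.14), with replicate 4 above the other S534A LPS arrays.

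Sinusoidal endothelial markers had the highest share of falls of the lists counted: 1 of the 18 measured members rose, 14 fell and 3 did not pass (median -0.53), and the mean level was 9.11 to 9.23 in untreated and 8.54 to 8.75 in S534A LPS arrays. Kdr, the main VEGF receptor, read 9.48, 9.44, 9.75 and 9.72 and 7.78, 7.61, 7.79 and 7.34 (-1.97 ± 0.13, 3.91-fold lower, adjusted p = 1.46e-07). Tek (Tie2), the angiopoietin receptor, read 8.77, 8.36, 8.79 and 8.62 and 6.92, 7.05, 7.14 and 6.89 (-1.64 ± 0.12, 3.11-fold lower), and Wnt2, a central-vein signal to hepatocytes, fell by 0.89 ± 0.09. The pan-endothelial gene Cdh5, named beside them, did not pass (0.20 ± 0.09), and Lyve1 was the member that rose (1.52 ± 0.15). Of the stellate cell and fibroblast markers 2 of the 14 measured members rose, 6 fell and 6 did not pass (median -0.18), among them Ngfr (0.68 ± 0.09), Lum (-0.77 ± 0.12) and Ecm1 (-0.35 ± 0.07). Among the stellate cell markers, the number that rose (2) became 1 without untreated array 1, 2 or 4 or S534A LPS array 2, 3 or 4, 1 without the 3 LPS arrays with pancreas transcripts and 1 without untreated replicates 2 and 4.

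Some markers of lymphoid cells, blood cells and bile duct cells were called, beside 11.0% higher and 16.0% lower over all genes. The B cell and dendritic cell counts were near or below those shares. Of the T cell and NK cell markers 6 of the 15 measured members (of 17 listed) rose, 1 fell and 8 did not pass. The smallest p was that of Ccl5 (3.81), which many activated cells make and which is also counted among the CC chemokines. Gzmb, a granzyme of cytotoxic cells, read 6.02, 5.77, 5.99 and 5.62 in untreated and 7.42, 6.98, 6.92 and 6.87 in S534A LPS liver (1.20 ± 0.14). Gzma rose by 0.51 ± 0.08, and Cd3e, the defining T cell gene, differed by 0.08 ± 0.08. Among the T and NK cell markers, the number that fell (1) became 0 without untreated array 1 or 4, S534A LPS array 1, 2 or 3 or WT LPS array 3, 0 without the 3 LPS arrays with pancreas transcripts and 0 without untreated replicates 1 and 3. Of the B cell markers 1 of the 7 measured members (of 8 listed) fell and the other 6 did not pass (Cd79b, -0.40 ± 0.11). Cd79b was not called without S534A LPS array 2 or untreated replicates 1 and 3 (log2 differences of -0.49 to -0.31 over the settings run, adjusted p up to 0.113). Among the B cell markers, the number that fell (1) became 2 without S534A LPS array 1 or WT LPS array 2, 0 without S534A LPS array 2 and 0 without untreated replicates 1 and 3. Among dendritic cell markers 1 of the 10 measured members rose, 1 fell and 8 did not pass. The member that rose was Irf8 (1.47), also counted among the interferon signalling factors. The member that fell was Clec9a (-0.57 ± 0.18). Clec9a was not called without S534A LPS array 1, 3 or 4, the 3 LPS arrays with pancreas transcripts or untreated replicates 2 and 4, nor in a fit of only the 8 arrays or with the replicate block (log2 differences of -0.82 to -0.32 over the settings run, adjusted p up to 0.0906). Among the dendritic cell markers, the number that fell (1) became 0 without S534A LPS array 1, 3 or 4, 2 without WT LPS array 1, 0 without the 3 LPS arrays with pancreas transcripts and 0 without untreated replicates 2 and 4. Of the erythroid markers 3 of the 5 measured members (of 9 listed) fell and the other 2 did not pass, the largest fall being Tfrc, the transferrin receptor (-0.91 ± 0.17), beside Epor and Alas2 (-0.40 ± 0.10 and -0.23 ± 0.07). Alas2 was not called without untreated array 1 or 2, S534A LPS array 3 or 4, the 3 LPS arrays with pancreas transcripts or untreated replicates 2 and 4 (log2 differences of -0.29 to -0.19 over the settings run, adjusted p up to 0.133). Epor was not called without untreated replicates 1 and 3 (log2 differences of -0.49 to -0.32 over the settings run, adjusted p up to 0.0771). Of the platelet markers 4 of the 6 measured members (of 8 listed) rose and the other 2 did not pass, with Itgb3 at 1.21 ± 0.09, Ppbp at 0.90 ± 0.15 and Pf4 at 0.27 ± 0.07. Pf4 was not called without S534A LPS array 1 or 3, the 3 LPS arrays with pancreas transcripts or untreated replicates 1 and 3 or 2 and 4 (log2 differences of 0.23 to 0.34 over the settings run, adjusted p up to 0.0756). Among the platelet markers, the number that rose (4) became 2 without untreated replicates 2 and 4. Of the cholangiocyte markers 1 of the 5 measured members (of 8 listed) rose and the other 4 did not pass (Sox9, 0.54 ± 0.16). Sox9 was not called without untreated array 2 or 4, S534A LPS array 1 or 4 or untreated replicates 2 and 4 (log2 differences of 0.27 to 0.81 over the settings run, adjusted p up to 0.218). Among the cholangiocyte markers, the number that rose (1) became 0 without untreated array 2 or 4 or S534A LPS array 1 or 4 and 0 without untreated replicates 2 and 4.

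Exocrine pancreas markers had a median difference of 0.94, but the limma fit called none of 16 (2 had an unadjusted p below 0.05). Try5, with the smallest p of the list, read 5.71, 5.18, 5.62 and 5.02 in untreated and 6.40, 5.80, 9.06 and 6.00 in S534A LPS liver (1.43 ± 0.61, adjusted p = 0.108), and was called without the 3 LPS arrays with pancreas transcripts (0.68). Among the pancreas markers, the number that rose (0) became 1 without WT LPS array 2 and 2 without the 3 LPS arrays with pancreas transcripts. The limma fit called none of 7 adipocyte markers either, none of which had an unadjusted p below 0.05. Lipe had the smallest p (-0.17 ± 0.08, adjusted p = 0.154). It was called without untreated replicate 3 and without replicates 1 and 3 (-0.30). The number of adipocyte markers that rose (0) became 1 without untreated replicates 2 and 4.

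Finally, each gene's level in S534A LPS liver was set beside its level in LPS-treated wild-type liver, where the dose was the same and the genotype differed. The comparisons of either LPS group with untreated liver share the untreated arrays. In wild-type LPS liver 9.34% of genes were higher and 15.6% lower than in untreated liver. Several lists moved the same way there. Of the type I interferon list 32 of 33 members rose, of the guanylate-binding and GTPase list 9 of 9 and of the NF-kB subunit list 10 of 12. Of the phase II enzymes 11 of 26 fell, and of the sinusoidal endothelial markers 12 of 18 fell and 1 rose. Between the LPS-treated genotypes limma called 33 genes higher in S534A (0.166%) and 1 lower (0.00502%). The 1 lower gene was Cpeb2, a regulator of mRNA translation named here after its values were seen, which differed by -0.83 ± 0.12 (adjusted p = 0.0226). At an unadjusted p below 0.05 there were 840 higher and 308 lower. Chance alone would put a share of about 0.05 of the 19938 genes below that threshold. These counts are therefore not a number of genes that differ by genotype. The number higher was 14, 12, 14 and 12 without S534A LPS replicates 1 to 4, and 117, 21, 9 and 15 without WT LPS replicates 1 to 4. The number lower was 0 without each S534A LPS replicate in turn and without WT LPS replicate 3, so Cpeb2 was not called there; it was 4, 6 and 1 without WT LPS replicates 1, 2 and 4, and 2, 2, 1 and 3 without untreated replicates 1 to 4. The fixed rule, which leaves out Cpeb2, takes in genes called here that are list members or among the largest changes, 19 genes. All 19 were higher in S534A LPS liver, with S534A LPS arrays that lay entirely above the WT LPS arrays. That separation is no separate support, since these genes were chosen by this same comparison.

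Il1a is the gene where the LPS groups parted most among these. It read 9.29, 9.54, 9.46 and 9.46 in S534A LPS, 8.12, 7.89, 8.21 and 8.45 in WT LPS and 8.20, 7.84, 8.28 and 8.40 in untreated liver. The WT LPS arrays, at 7.89 to 8.45, were close to the untreated range of 7.84 to 8.40. The difference between LPS-treated genotypes was 1.27 ± 0.13 (95% interval 0.99 to 1.55, adjusted p = 0.00191). Il33, an alarmin of the same family, read 7.42, 7.42, 7.60 and 7.26, 6.79, 6.40, 6.21 and 6.49 and 6.22, 6.22, 6.14 and 6.21 in the same order (0.95 ± 0.11, adjusted p = 0.00372). Against untreated liver Il33 differed by 1.23 ± 0.11 in S534A LPS and 0.27 ± 0.11 in WT LPS liver (adjusted p = 0.0835 for the latter). Il1b had WT LPS values of 8.25, 8.66, 8.53 and 8.87 (1.09 ± 0.15, adjusted p = 0.0158), and Il1f9 of 6.33, 5.87, 6.09 and 5.96 (0.64 ± 0.09, adjusted p = 0.0158).

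The other named genes had risen in both LPS groups and stood higher in S534A. Mxd1 read 9.45, 9.26, 9.21 and 9.22 in WT LPS liver (1.17 ± 0.12, adjusted p = 0.00191). For Ch25h, which makes 25-hydroxycholesterol, the WT LPS arrays gave 7.25, 6.87, 7.05 and 7.38 and the S534A LPS arrays 8.19, 8.26, 7.86 and 8.71 (1.12 ± 0.15, adjusted p = 0.0136). Mmp13 differed by 1.10 ± 0.15, Ccl3 by 0.95 ± 0.11 and Chil1, a chitinase-like protein, by 0.93 ± 0.13. Cd274 read 10.74, 10.48, 10.30 and 10.28 in WT LPS liver (0.91 ± 0.11, adjusted p = 0.00386). Socs1 read 7.49, 7.69, 7.55 and 7.44 (0.86 ± 0.07, adjusted p = 0.000906), and Hcar2 8.61, 8.31, 8.11 and 8.28 (0.84 ± 0.09, adjusted p = 0.00372). Slfn4, Retnlg and Cxcl11 differed by 0.70 ± 0.10, 0.68 ± 0.10 and 0.62 ± 0.10, and Arg2, Cd40, S100a9 and Hk2 by 0.53 ± 0.09, 0.53 ± 0.09, 0.52 ± 0.09 and 0.47 ± 0.07.

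These differences rest on few arrays. Without any 1 of the 12 arrays, 7 of the 19 stayed called each time (Ccl3, Cd274, Hcar2, Il1a, Il33, Mxd1 and Socs1). Without the 3 LPS arrays that hold pancreas transcripts, Socs1 was called (0.94, adjusted p = 0.0471), and the others missed the threshold with Il1a at 1.15 and Cd274 at 0.83. Those arrays are 1 of the 4 S534A LPS and 2 of the 4 WT LPS arrays, and the part of pancreas tissue in the differences was not tested.

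For most of the largest changes no difference between the LPS-treated genotypes was called. None of the genes given in this paragraph was called between them. The intervals are not adjusted over all genes, so an interval that excludes no difference is not a call. The 95% interval of the genotype difference was 0.15 to 0.76 for Ifit2, -0.09 to 0.40 for Ifit1, -0.10 to 0.59 for Rsad2, -0.96 to 0.90 for Saa1 and -0.36 to 0.48 for Slc40a1. Sucnr1 differed by -0.63 ± 0.14 (-0.94 to -0.32, adjusted p = 0.142) and Tnf by 0.35 ± 0.08 (0.17 to 0.53, adjusted p = 0.179). Nfkbia and Tnfaip3, NF-kB targets, differed by 0.24 ± 0.15 (-0.08 to 0.56) and 0.54 ± 0.11 (0.31 to 0.76), Ccl2 by 0.74 ± 0.14 (0.43 to 1.06) and Cxcl1 by 0.43 ± 0.36 (-0.36 to 1.21). Il6 had an interval of 0.22 to 0.87 (adjusted p = 0.291), with WT LPS values of 4.81, 4.83, 4.88 and 5.14.

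**Figure D5:**
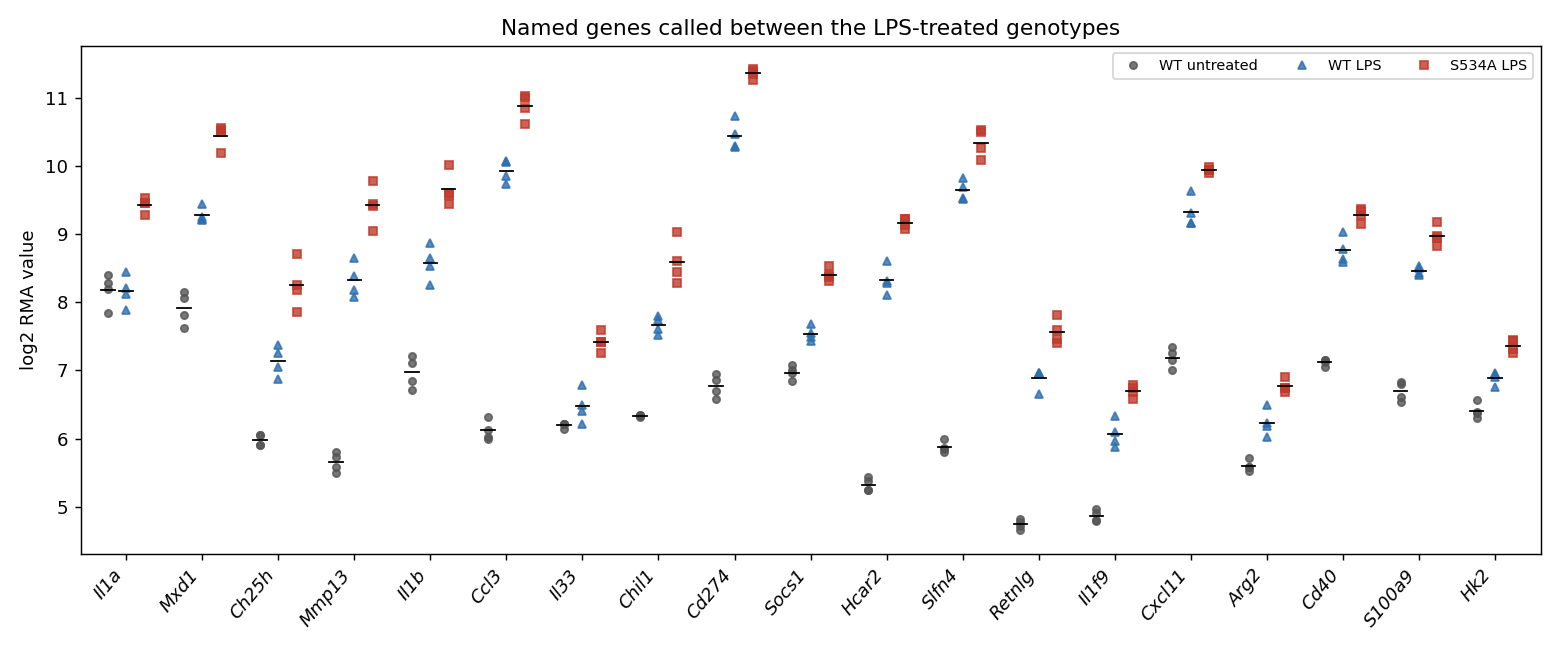
Log2 RMA values (y axis) of the 19 genes named by the fixed rule and called between the LPS-treated genotypes, in untreated wild-type, WT LPS and S534A LPS liver (4 arrays each, black bars at the means). In every gene drawn, chosen by this same comparison, the S534A LPS arrays lie above the WT LPS arrays, by 1.27 ± 0.13 for Il1a and 0.47 ± 0.07 for Hk2.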

How the data were processed

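Liver RNA was measured on Affymetrix whole-transcript arrays. The deposited values are log2 levels from RMA, per the submitters' processing notes (version not given in the sources used here), for 35556 probe sets. Probe sets were named from the platform annotation: 21789 had 1 gene symbol, 1621 several and 12146 none. Where a gene had several probe sets, the brightest on average over all 12 arrays stood for it, giving 19938 genes, with no filter on dim genes. limma 3.58.1 in R 4.3.3 (lmFit, eBayes; 9 residual and 3.54 prior degrees of freedom) was fitted to all 3 groups, two-sided, with Benjamini-Hochberg adjustment over all genes. The script was tested on simulated data. The scale was not rescaled; centring or quantile alternatives are in the closing section.

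Named genes were the 12 largest rises and 12 largest falls with separated groups, up to 3 called members per list by lowest p, all named genes called between the LPS-treated genotypes, 10 preset inflammatory genes and the Per, Nr1d and Arntl genes; members outside this rule are named to account for a list. The members and the 57 lists were chosen with earlier results of these data known, so no list was tested as a set. Of 1004 listed symbols 914 were measured, 4 under another symbol; the rest had no probe set of their own among those used here.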

Additional observations from a re-analysis of the deposited data

Results flagged for a closer look

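In groups of 4 arrays, 14 of 368 groups of named genes held 1 array whose gap to its nearest neighbour exceeded Dixon's critical share of the group's range; chance flags about 1 group in 20. In S534A LPS replicate 1 these were C5ar1 (7.60, next 7.69), Cyp2d22 (12.11, next 12.26), Gbp9 (11.28, next 11.22), Mxd1 (10.19, next 10.51) and Tlr3 (9.69, next 10.01). In S534A LPS replicate 3, which carries pancreas transcripts, they were E2f1 (6.02, next 6.23), Hsd3b5 (10.59, next 10.47) and Tap2 (9.75, next 9.87). Marco stood high in S534A LPS replicate 4 (8.42, next 7.78). Among untreated arrays, replicate 4 was high for Clec9a (6.53, next 5.68), Mx2 (6.08, next 5.61) and Myd88 (10.07, next 9.80), replicate 2 low for Cd79b (7.22, next 7.52) and replicate 1 low for Fam13a (7.95, next 8.74).

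The 19 genes named by the rule (which leaves out Cpeb2) that limma called between the LPS-treated genotypes were higher in S534A, by 1.27 for Il1a, 1.17 for Mxd1, 1.12 for Ch25h, 1.10 for Mmp13, 1.09 for Il1b, 0.95 for Ccl3 and Il33, 0.93 for Chil1, 0.91 for Cd274, 0.86 for Socs1, 0.84 for Hcar2, 0.70 for Slfn4, 0.68 for Retnlg, 0.64 for Il1f9, 0.62 for Cxcl11, 0.53 for Arg2 and Cd40, 0.52 for S100a9 and 0.47 for Hk2.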

How the results depend on the processing

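The counts of 2188 genes higher, 3181 lower, 549 at least 2-fold higher and 270 at least 2-fold lower stayed within 1.5 times under the alternatives run, apart from other thresholds: 2096 genes were lower at an adjusted p under 0.01, 1026 and 1126 were at least 1.5-fold higher and lower, and 189 and 14 at least 4-fold. Leaving out each array in turn gave 1842 to 2590 genes higher and 2659 to 3620 lower. Median centring gave 1866 and 3157, and a filter on dim genes 1919 and 3061. Of 178 called genes named by the rule, 164 were called in each of 27 settings. Without the 3 LPS arrays with pancreas transcripts 6 were lost. Leaving out untreated replicates 1 and 3, or 2 and 4, was chosen after seeing the data and lost 5 and 10. Directions turned for clock genes that split the untreated arrays: Arntl (0.40) ranged from -0.09 to 0.87 without single arrays, and was -0.34 with array weights and -1.01 without untreated replicates 2 and 4; Nr1d2 (-0.09) ranged from -0.31 to 0.10, and was 0.19 with array weights and 0.48 without those replicates; Per1 (0.70) was -0.51 without untreated replicates 1 and 3. With the replicate number as a block, 1968 genes were higher, 2916 lower, 548 at least 2-fold higher and 270 at least 2-fold lower, and 3 named calls were lost. The numbers are not said to pair the samples. Deviations of same-numbered untreated and S534A LPS arrays correlated at 0.05, 0.06, -0.16 and -0.27. No untreated array correlated best with the S534A LPS array of its own number. Such weak correlations cannot exclude a pairing, and the WT LPS arrays were not compared in this way. The dimmest probe sets, with signal near background, limit what can be seen for genes such as Il6.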

Other observations

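Some of the larger changes lay in genes of none of the 57 lists, named here after their values were seen. Calhm6, an ion channel subunit of macrophages, was 4.62 ± 0.13 higher in S534A LPS liver (24.7-fold, adjusted p = 3.14e-11). The antiviral helicase gene Ddx60 (4.25 ± 0.15), Trim30d (3.76 ± 0.09), the NF-kB adaptor gene Tifa (3.72 ± 0.11) and the giant interferon-induced ligase gene Rnf213 (2.74 ± 0.06) rose, as did A2m, a protease inhibitor of acute phase plasma (3.66 ± 0.19), Slc10a6, a steroid sulphate carrier (3.42 ± 0.15), and Upp1, uridine phosphorylase (3.07 ± 0.21). Plscr1 and Samhd1, which restrain virus entry and nucleotide supply, rose by 2.85 ± 0.09 and 3.06 ± 0.13. Lower were Prss8 (-1.99 ± 0.15), Zmiz1 (-1.90 ± 0.11), Lims2 (-1.87 ± 0.10), Cldn1, a tight junction gene (-1.71 ± 0.37), Ptprb, an endothelial phosphatase gene (-1.50 ± 0.12), and Pth1r, the parathyroid hormone receptor (-1.49 ± 0.11).

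Gene families grouped by the start of their symbol, also chosen after the data were seen, were counted beside the shares over all genes (11.0% higher, 16.0% lower). Of 11 Ugt genes 9 fell, of 14 Akr1 genes 9 fell, and of 16 Ces genes (carboxylesterases) 8 fell. Of mitochondrial ribosomal genes, 13 of 48 Mrpl genes fell and 2 rose, and 9 of 29 Mrps genes fell. Of 50 Psm genes 15 rose and 2 fell. Of 12 Parp genes 7 rose and 3 fell, of 60 Trim genes 16 rose and 5 fell, and of 20 Tnfrsf genes (receptors of the TNF family) 9 rose. Among 1016 olfactory receptor genes (Olfr), which liver is not known to express, 64 were called higher and 1 lower, with a median difference of 0.08 against 0.03 over all genes. Of 12146 probe sets without a gene symbol, 741 were higher and 942 lower (13.9% called).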
